A study of Mus musculus with 32 samples.

Results

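The reference genes examined here are Gapdh, Hprt1 (Hprt in current nomenclature), Gusb, Ppia, Tbp, Ywhaz, B2m and Tfrc, 8 genes that are often used to put expression measurements of different samples on a common scale. Every probe whose symbol in the deposited array table was one of these names was taken, and all 8 were present among the 18138 gene symbols of the array, with 16 of its 25697 probes. Of these, 12 probes, at least 1 for each gene, passed the detection filter that left 10187 probes (7926 genes) for testing. Frontal cortex (FCtx) of 32 female mice from crosses of C57BL/6J and FVB/NJ was profiled on Illumina MouseRef-8 v2.0 arrays, 1 array per mouse. The 20 ethanol-treated mice drank by choice from 20% ethanol offered beside water in daily sessions over 20 days, and the 12 controls were untreated F1 mice of the same strain label. The intake was voluntary, and the labels give no dose or age for a single mouse. Chips 1 and 2 held 8 ethanol-treated mice each, chip 4 held 8 controls, and chip 3 held 4 mice of each group, with ethanol-treated mice at odd positions and controls at even positions.

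A reference gene serves its purpose when its transcript level differs little between samples and does not follow the treatment, because any change in it is passed with the opposite sign to every gene scaled to it. The usual candidates come from unrelated pathways, so that no single cellular response moves all of them. Gapdh encodes a glycolytic enzyme, Hprt1 an enzyme of purine salvage and Gusb a lysosomal hydrolase. Ppia encodes cyclophilin A, Tbp the TATA-binding protein of the general transcription machinery, and Ywhaz a 14-3-3 adaptor protein abundant in brain. B2m encodes the light chain of MHC class I molecules and Tfrc the transferrin receptor that takes up iron. The Methods of the study name Hprt and Gusb as the endogenous controls of its qPCR of mRNA. There the pair was chosen as the least variable of the control assays tested, with the geNorm and NormFinder algorithms on qPCR data. Array probes are a different assay, so the values here do not test that choice. The questions here were how much each gene varied between mice, whether it differed between groups, and how the choice of reference alters the comparison.

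Each probe is 50 bases long, and its position is given as its first base in the RefSeq transcript named by the table. Hprt1 (chromosome X) was read by 3 tested probes, at bases 189, 699 and 955. The first 2 of these are shown because they gave different answers for the same coding sequence.

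Hprt1 probe at base 189: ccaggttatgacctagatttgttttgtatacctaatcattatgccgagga
Hprt1 probe at base 699: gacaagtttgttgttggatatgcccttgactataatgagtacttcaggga

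The 2 tested B2m probes (chromosome 2) start at bases 321 and 322 and overlap in 49 of 50 bases, printed here in capitals, so they are nearly the same measurement made on separate beads.

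B2m probe at base 321: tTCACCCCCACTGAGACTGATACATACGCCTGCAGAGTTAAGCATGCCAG
B2m probe at base 322: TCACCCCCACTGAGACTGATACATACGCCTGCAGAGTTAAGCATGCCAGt

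Gusb (chromosome 5) had a single tested probe, at base 2340. Its other 2 probes lie in the coding sequence and are shown because they did not pass the detection filter.

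Gusb probe at base 440: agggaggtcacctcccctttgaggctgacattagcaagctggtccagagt
Gusb probe at base 1417: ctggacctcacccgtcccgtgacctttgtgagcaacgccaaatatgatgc

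The Gusb probe at base 440 was detected on 20 of the 32 arrays and the one at base 1417 on 1 array. The B2m probe at base 535 and the Ywhaz probe at base 2078 were detected on 0 arrays. These 4 probes were not tested. Gapdh (base 1078, chromosome 6), Ppia (base 294, chromosome 11), Tbp (base 1188, chromosome 17) and Ywhaz (base 2907, chromosome 15) were each represented by 1 tested probe, and Tfrc (chromosome 16) by 2, at bases 4269 and 4355. All 12 tested probes were detected on all 32 arrays.

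The median signal per array ranged from 166 to 203 in ethanol-treated mice and from 146 to 187 in controls, and the number of probes detected on an array from 9480 to 11544. The array of control mouse C66 on chip 4 was lowest in both measures. Marker genes of neurons, astrocytes, oligodendrocytes, microglia, endothelium and erythroid cells were detected for 6 of 9, 8 of 9, 8 of 8, 11 of 12, 8 of 10 and 4 of 6 genes on the array. The neuronal genes Snap25, Gad2 and Nefl and the astrocyte gene Gfap did not pass the detection filter through their probes.

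Before any scaling, the signal of the Gapdh probe had a median of 11381 in ethanol-treated mice, with a range of 9386 to 13005, and a median of 10988 in controls, with a range of 5468 to 13016. The Hprt1 probe at base 955 gave 4003 to 6523 (median 5066) in ethanol-treated mice and 2504 to 6199 (median 5047) in controls. The Gusb probe gave 322 to 472 (median 360) and 191 to 397 (median 339). The signals of the groups overlapped for each of these genes, and the lowest control values extended below the lowest ethanol values. After variance stabilization and quantile normalization, which give values on a log2 scale and force the same distribution on every array, the spread between mice differed among the genes.

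Gapdh, Ywhaz, Ppia and Tbp varied least. Their SD within groups was 0.080, 0.080, 0.081 and 0.082 on the log2 scale, against a median of 0.127 over all tested probes, and stood at percentiles 2.29, 2.35, 2.58 and 2.68. Gapdh values ranged from 13.26 to 13.58 (median 13.37) in ethanol-treated mice and from 13.24 to 13.54 (median 13.47) in controls. Tbp values ranged from 8.16 to 8.47 (median 8.29) and from 8.08 to 8.36 (median 8.27). The groups overlapped for both genes, although 4 of the 20 ethanol-treated mice were above the highest control for Tbp.

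Gusb and B2m, with SDs of 0.113 for Gusb and 0.124 and 0.116 for the B2m probes at bases 321 and 322, were in the middle of the distribution. Hprt1 at base 955 lay among them, at 0.122 (percentile 44.1), whereas its probes at bases 189 and 699 were more variable, at 0.158 (percentile 78.9) and 0.168 (percentile 84.1). Tfrc was the most variable, with 0.251 at base 4269 and 0.186 at base 4355, at percentiles 97.6 and 90.1 of all tested probes. The error between beads of the same probe within an array was 0.067 and 0.076 for these probes. It was 0.073 for Tbp, 0.070 for Ywhaz and 0.065 for Ppia, close to their SDs between mice, and 0.043 for Gapdh.

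**Figure D1:**
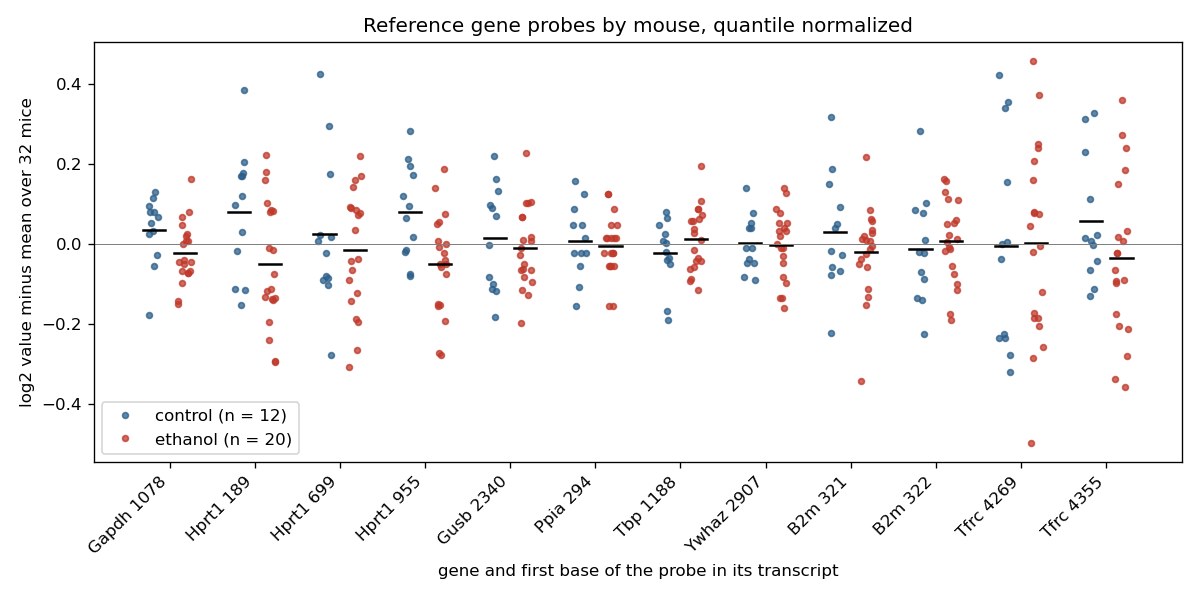
Quantile-normalized log2 value of each mouse minus the probe's mean over the 32 mice (vertical axis), for the 12 tested probes of the reference genes (horizontal axis, gene and first base in the transcript). Points are mice, blue for controls (n = 12) and red for ethanol-treated mice (n = 20), and black lines are group means. Gapdh, Ppia, Tbp and Ywhaz lie closest to 0 and the Tfrc probe at base 4269 is the most scattered.

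The order of the genes depended on the scaling. When each array was only shifted to a common median, the SD of Tbp was 0.101 (percentile 5.58), that of Ppia 0.134 (percentile 22.3), that of Gapdh 0.159 (percentile 36.0) and that of Ywhaz 0.173 (percentile 44.6), against a median of 0.182 over all tested probes. Tbp was then the only one of the 4 low-spread genes that stayed below percentile 10. The B2m probes moved to percentiles 85.4 and 88.5, and the Tfrc probes remained high, at 96.7 and 88.2. The Ppia, Ywhaz and Gapdh probes have signals at percentiles 99.9, 99.5 and 99.0 of the tested probes, and the Tbp probe a signal at percentile 32.5. Signals of different probes do not measure relative amounts of their transcripts.

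None of the 8 reference genes differed between ethanol-treated mice and controls at a false discovery rate (FDR) below 1% by limma, with Benjamini-Hochberg adjustment over all tested probes. By the same rule 9.78% of all tested genes were called. At the wider threshold of an FDR below 10% and a change of at least 1.1-fold, 0 of the 8 genes were called, where 18.7% of all tested genes were. For 0 of the 8 genes did a probe separate the groups without overlap, which held for 0.0126% of all tested genes. At an unadjusted p below 0.05, 1 of the 8 genes passed, Hprt1, where 35.9% of all tested genes did. The median difference over the 8 genes was -0.019 on the log2 scale and over all tested probes -0.0034. A simulation of this comparison had independent noise and no chip effect. In it, 192 of 200 probes given a change of 0.3 on the log2 scale passed an FDR of 1% (96%). Recovery of changes smaller than 0.3 was not tested.

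Hprt1 values at base 955 ran from 12.02 to 12.49 (median 12.25) in ethanol-treated mice and from 12.22 to 12.58 (median 12.38) in controls. The group means were 12.25 ± 0.12 (SD, n = 20) and 12.38 ± 0.12 (SD, n = 12). In 18 of the 20 ethanol-treated mice the value lay below the control median, and in 6 below the lowest control. The difference was -0.13 (SE 0.045, adjusted p = 0.0376 by limma). It passed an FDR of 10%, but its size was short of 1.1-fold. The probe at base 189 gave the same difference, -0.13 (SE 0.055, adjusted p = 0.0961), with 17 of 20 ethanol-treated mice below the control median. The probe at base 699 gave -0.039 (SE 0.058, adjusted p = 0.686), with 10 of 20 below. Hence 2 of the 3 probes of this gene placed ethanol-treated mice lower, although not at the level of a call, and the third did not separate the groups.

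For the other genes the differences were smaller than the spread between mice. The Gusb probe averaged 8.41 ± 0.10 (SD, n = 20) and 8.44 ± 0.13 (SD, n = 12), a difference of -0.024 with a 95% confidence interval from -0.11 to 0.062. For Gapdh the difference was -0.056 (interval -0.12 to 0.012), and 17 of 20 ethanol-treated mice were below the control median. For Ppia it was -0.014 (interval -0.083 to 0.055), for Ywhaz -0.0044 (interval -0.073 to 0.064) and for Tbp 0.035 (interval -0.034 to 0.10). None of these 5 intervals extended below -0.125 or above 0.105, whereas that of Hprt1 at base 955 reached -0.22. The B2m probes gave -0.050 (interval -0.14 to 0.042) at base 321 and 0.018 (interval -0.069 to 0.11) at base 322. These estimates of opposite sign come from probes with 49 bases in common, whose values correlated with r = 0.41 over the 32 arrays after centring within group and chip. The Tfrc probes gave 0.0058 (interval -0.16 to 0.17) at base 4269 and -0.091 (interval -0.22 to 0.037) at base 4355, the widest intervals of the 8 genes.

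Under median scaling, 0 of the 8 genes passed an FDR of 1%, where 1.6% of all tested genes were called, and 0 passed the wider threshold, where 12.5% were. The median difference over all tested probes was then 0.052, and that over the 8 genes 0.025. Under this scaling Hprt1 at base 955 gave -0.085 (SE 0.074, adjusted p = 0.508) and Tbp 0.093 (SE 0.042, adjusted p = 0.170). Gusb changed sign to 0.034, as did Ppia, Ywhaz, the Hprt1 probe at base 699 and the B2m probe at base 321, all within their standard errors of 0. With no scaling between arrays the median over all tested probes was 0.20, so every gene is read against that shift. Tbp was then called at an FDR of 1% with 0.24 (adjusted p = 0.00462), a call that 30.7% of all tested genes shared, whereas the Hprt1 probe at base 955 was at 0.067, below the general shift. All 8 genes passed the wider threshold, as did 75% of all tested genes. Under quantile normalization, median scaling and no scaling alike, Hprt1 at base 955 had the lowest and Tbp the highest difference of the 12 probes.

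**Figure D2:**
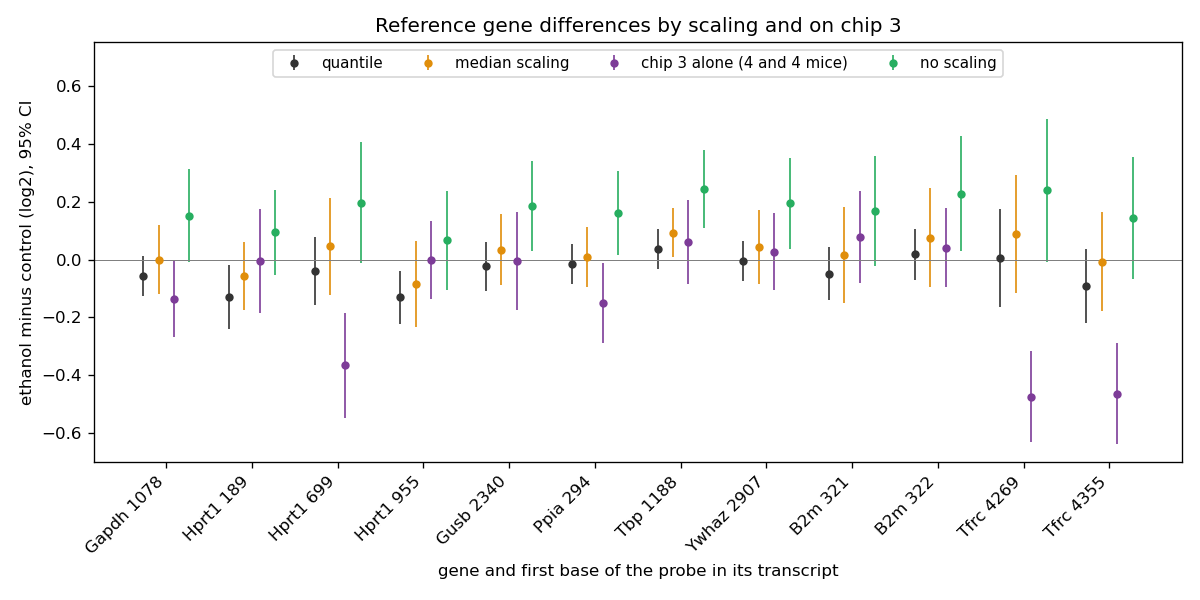
Ethanol minus control difference on the log2 scale with its 95% confidence interval (vertical axis) for each tested probe of the reference genes (horizontal axis), by limma. Black marks are quantile normalization and orange marks median scaling, both on 20 against 12 mice, purple marks are chip 3 alone (4 against 4 mice), and green marks are values without scaling between arrays. The purple marks of both Tfrc probes and of Hprt1 at base 699 lie well below the others.

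Chip 3 is the only chip that held both groups, so the comparison was repeated on it. At an FDR below 10%, 2 of the 8 genes, Tfrc and Hprt1, were called lower in ethanol-treated mice, where 10.3% of all tested genes were called lower and 19.8% in either direction. At an FDR below 1%, Tfrc was called lower and no other of the 8 genes was called, where 2.17% of all tested genes were called lower and 4.08% in either direction. For Tfrc at base 4269 the 4 ethanol-treated mice were at 9.88, 9.95, 9.96 and 10.13, and the 4 controls at 10.29, 10.48, 10.49 and 10.56. For the probe at base 4355 the values were 9.76, 9.78, 9.90 and 10.05 against 10.13, 10.35, 10.43 and 10.44. The groups did not overlap for either probe, which on this chip held for 18.2% of all tested genes. The differences were -0.47 (SE 0.074, adjusted p = 0.00127 by limma) and -0.46 (SE 0.083, adjusted p = 0.00243).

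On the other chips Tfrc was not lower in ethanol-treated mice. At base 4269 the ethanol-treated mice averaged 10.35 ± 0.16 (SD, n = 8) on chip 1, 10.004 ± 0.21 (SD, n = 8) on chip 2 and 9.98 ± 0.11 (SD, n = 4) on chip 3. Controls averaged 10.46 ± 0.11 (SD, n = 4) on chip 3 and 9.97 ± 0.13 (SD, n = 8) on chip 4. At this probe the controls of chip 4 were lower than those of chip 3 by -0.48 (SE 0.075, adjusted p = 0.000848), about as much as the ethanol-treated mice of chip 3 were, in a contrast in which 4.92% of all tested genes were called at an FDR of 1%. Ethanol-treated mice of chip 2 differed from those of chip 1 by -0.35 (SE 0.081, adjusted p = 0.0516), a contrast with 0.0126% of all tested genes called. At base 4355 both differences were smaller, with -0.24 (SE 0.068, adjusted p = 0.0238) between the controls of chips 4 and 3 and -0.19 (SE 0.073, adjusted p = 0.225) between chips 2 and 1. The ethanol difference on chip 3 minus that on the remaining chips was -0.68 (SE 0.15, adjusted p = 0.00511) at base 4269 and -0.51 (SE 0.12, adjusted p = 0.00746) at base 4355, by a limma interaction term that called 3.29% of all tested genes. With odd or even position as a covariate the interaction was -0.55 (adjusted p = 0.0595) and -0.41 (adjusted p = 0.0728), and treatment and position cannot be told apart on chip 3. With chip as a fixed block the fit held all mice, but chip 3 alone gave the difference, so its estimates are those of chip 3. Tfrc was then the 1 reference gene called at an FDR of 1% (-0.46, adjusted p = 0.00993 by limma at base 4355), with 0.252% of all tested genes. Tfrc and Hprt1 passed the wider threshold, with 7.83% of all tested genes.

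Hprt1 differed between its probes on chip 3. At base 699 the ethanol-treated mice were at 9.68, 9.75, 9.82 and 9.98 and the controls at 9.97, 10.12, 10.24 and 10.37, so that the groups overlapped by a single pair of neighbouring values. The difference was -0.37 (SE 0.086, adjusted p = 0.0127 by limma), and its interaction with the remaining chips was -0.46 (SE 0.11, adjusted p = 0.00748). At base 955 the same 8 mice gave -0.0013 (SE 0.064) and at base 189 -0.0040 (SE 0.086). The controls of chip 4 were higher than those of chip 3 by 0.19 at base 955 (adjusted p = 0.0401) and lower at base 699, by -0.31 (adjusted p = 0.0110). At base 955 the controls of chip 4 had the highest mean, 12.44 ± 0.087 (SD, n = 8). The controls of chip 3 averaged 12.25 ± 0.035 (SD, n = 4), and the ethanol-treated mice of chips 1, 2 and 3 averaged 12.24, 12.26 and 12.25. The interaction at base 955 was 0.19 (SE 0.094, adjusted p = 0.196 by limma). With odd or even position as a covariate it was 0.35 (SE 0.088, adjusted p = 0.0267 by limma), and position and treatment cannot be told apart on chip 3. The 95% interval on chip 3, -0.14 to 0.13, included the difference of -0.13 seen with all mice. On chips 1, 2 and 4, mice at odd positions were lower than those at even positions at this base by -0.16 (SE 0.042, adjusted p = 0.0138), a contrast that called 4.24% of all tested genes and 0 of the 8 at an FDR of 1%.

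**Figure D3:**
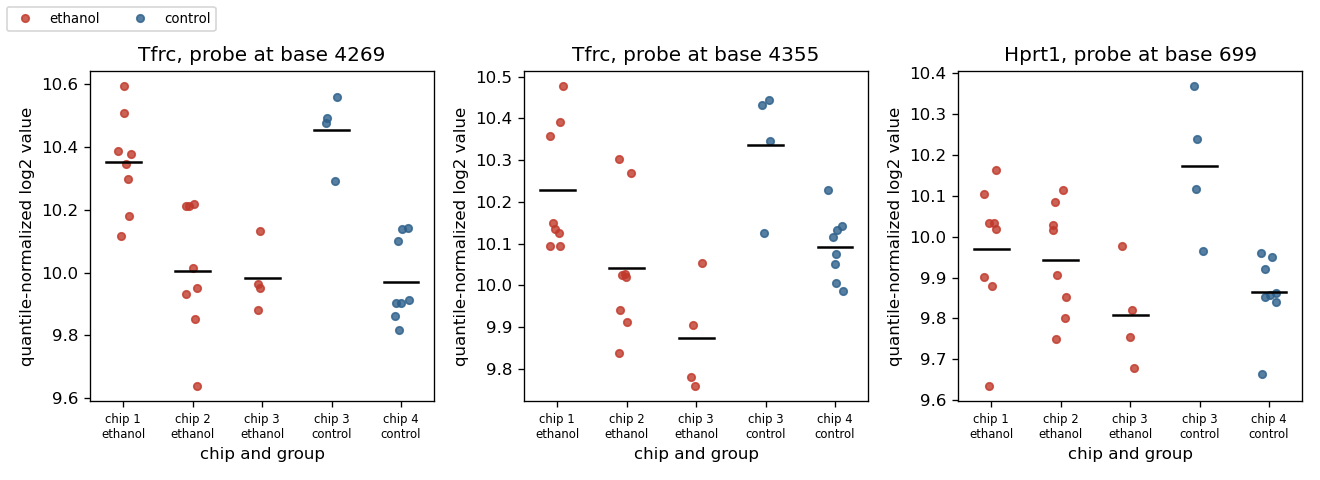
Quantile-normalized log2 value (vertical axes) of both Tfrc probes and of the Hprt1 probe at base 699 for each mouse, by chip and group (horizontal axes). Points are mice (8 on chips 1, 2 and 4, and 4 of each group on chip 3), and black lines are means. The controls of chip 3 have the highest mean in each panel, and those of chip 4 lie below them.

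Gapdh and Ppia were also lower in ethanol-treated mice of chip 3, by -0.13 (SE 0.063) and -0.15 (SE 0.066), without passing the test (adjusted p = 0.178 and 0.149 by limma). For Gapdh the 4 ethanol-treated mice ranged from 13.26 to 13.41 and the 4 controls from 13.44 to 13.54. They did not overlap, which on this chip held for 18.2% of all tested genes. Gusb (-0.0039), Tbp (0.061), Ywhaz (0.027) and the B2m probes (0.078 and 0.041) were each within their standard errors of 0 or close to it. For Gapdh, mice at odd positions of chips 1, 2 and 4 were lower than those at even positions by -0.11 (SE 0.035, adjusted p = 0.0357). For Gusb the position difference ran the opposite way, with 0.12 (SE 0.041, adjusted p = 0.0568).

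On chip 3 most markers of oligodendrocytes, cells rich in iron and transferrin, were lower in ethanol-treated mice, as Tfrc was, and several markers of astrocytes were higher. Of the 8 oligodendrocyte genes, 6 were lower and 1 higher in ethanol-treated mice through at least 1 probe at an FDR below 10% and 1.1-fold, where 10.3% of all tested genes were lower and 9.73% higher, and their median difference was -0.37, where that of all tested probes was -0.00068. The summed level of these markers ranged from 21754 to 25989 in the ethanol-treated mice of chip 3, from 24117 to 38594 in its controls, and from 19317 to 30920 in the controls of chip 4. The median sum was 22836 (range 21032 to 47185) in the ethanol-treated mice of chip 1 and 27058 (range 23888 to 34064) in those of chip 2. Tfrc at base 4269 averaged 10.35 on chip 1 and 10.004 on chip 2, so the chip with the lower median sum had the higher Tfrc mean. None of the 8 markers was undetected. Of 8 tested astrocyte genes, 4 were higher and 0 lower at the same threshold, with a median difference of 0.15. Their summed level ranged from 30680 to 33243 in the ethanol-treated mice of chip 3 and from 26206 to 28959 in its controls, without overlap. At the same threshold on chip 3, 1 of 6 neuronal genes was higher and 2 were lower. Of 11 microglial genes 0 were higher and 1 lower, and of 8 endothelial genes 2 and 0. With all mice the oligodendrocyte median was -0.043, and the 1 gene called at an FDR of 1%, Mbp, was higher, where 9.78% of all tested genes were called. The part of either cell type in the Tfrc difference was not tested, and in bulk tissue fewer cells of a type and less RNA per cell cannot be told apart. Trf, which encodes the transferrin that the receptor binds, was lower on chip 3 by -0.45 (adjusted p = 0.0182). It was the 1 gene called at that threshold among the 6 tested genes of iron handling, whose median difference on chip 3 was 0.030.

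Stability was also measured without any scaling, from ratios within arrays, in which a factor common to the array cancels. For each gene the mean SD of its log2 ratio to the other 7 genes, the measure M of the geNorm procedure, was taken from the brightest probe. Over all 32 mice M was lowest for Gapdh (0.151) and Ppia (0.156). Ywhaz (0.170), Gusb (0.176), Tbp (0.178), Hprt1 (0.196) and B2m (0.198) followed, and Tfrc was highest (0.280). When the gene with the highest M was removed in steps, Tfrc left first, then B2m, Hprt1, Gusb, Tbp and Ywhaz, and the pair Gapdh and Ppia remained, with an SD of their log2 ratio of 0.091. In ethanol-treated mice alone the remaining pair was the same. In controls alone it was Gapdh and Ywhaz. M measures agreement among these 8 probes and depends on which genes are in the set. It was not compared with the qPCR values behind the choice of Hprt and Gusb. With normexp background correction Gapdh and Ppia again remained last, but Gusb had the second highest M (0.229) and was removed right after Tfrc.

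**Figure D4:**
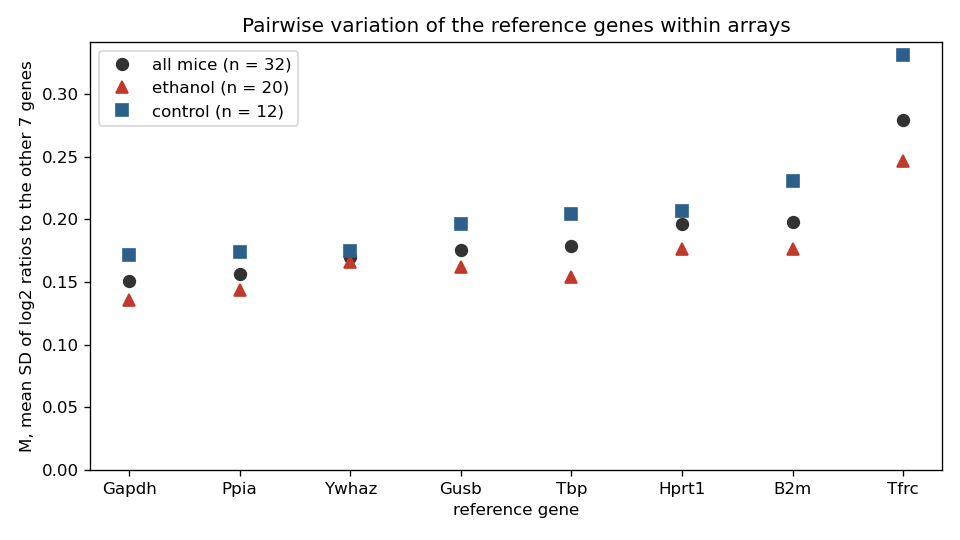
Mean SD of the log2 ratios of each reference gene to the other 7 genes within arrays (vertical axis, from 0) for the 8 genes (horizontal axis, ordered by the value over all mice). Black circles are all 32 mice, red triangles the 20 ethanol-treated mice and blue squares the 12 controls. Gapdh is lowest, at 0.151, and Tfrc highest, at 0.280, over all mice.

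The qPCR pair, Hprt1 and Gusb, was examined by the difference of their values within each array, from base 955 and base 2340. The log2 difference ranged from 3.41 to 4.12 (median 3.81) in ethanol-treated mice and from 3.73 to 4.33 (median 3.90) in controls. Its mean was 3.83 ± 0.19 (SD, n = 20) against 3.95 ± 0.21 (SD, n = 12), a difference of -0.12 (SE 0.073, p = 0.109, two-sided permutation test with 100000 resamples), with 13 of 20 ethanol-treated mice below the control median. On chip 3 the difference was -0.015 (SE 0.14, n = 4 and 4, p = 0.886, exact permutation test, for which the smallest possible p is 0.0286). With the Hprt1 probe at base 699 in place of base 955 it was 0.011 (SE 0.083). The difference within the pair thus did not separate the groups beyond its own spread. A change that both genes share cancels in it, so it does not show whether the mean of the pair followed treatment. The SD of the ratio, 0.202 over all mice, was larger than that of Gapdh to Ppia. After centring within group and chip, the normalized values of Hprt1 and Gusb correlated with r = -0.44 over the 32 arrays, the most negative value among the pairs that include either gene.

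When the variance-stabilized values of each array were scaled to the mean of Hprt1 and Gusb, 1102 of the 10187 tested probes (10.8%) differed at an FDR of 1%, and 97.0% of them were higher in ethanol-treated mice (1069 higher, 33 lower). With quantile normalization 837 probes passed, 44.2% of them higher (370 higher, 467 lower). Relative to the median of the tested probes on each array, and centred over the 32 mice, the mean of the pair ranged from -0.15 to 0.098 with ethanol and from -0.11 to 0.18 in controls, with means of -0.035 ± 0.064 (SD, n = 20) and 0.058 ± 0.10 (SD, n = 12). The groups overlapped, and the difference was passed to every probe with the opposite sign. The median difference over all tested probes became 0.077. When chip was added as a fixed block, so that chip 3 alone gave the difference, 0 probes passed an FDR of 1% by limma and 1365 had an unadjusted p below 0.05.

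Scaling to a single reference gene gave counts that differed by 2 orders of magnitude and splits that ran in either direction. Each gene was taken from its brightest probe, and chip was not in the fit. Neither the other probes of a gene nor a chip block was used for these single-gene scalings. Under median scaling the Hprt1 probes at bases 955 and 699 differed by -0.085 and 0.045. With Hprt1 (base 955) alone 1489 probes passed, 99.6% of them higher. With Gapdh 601 passed (93.2% higher), with Ppia 432 (91.0% higher), with Gusb 198 (82.3% higher), with Ywhaz 113 (81.4% higher) and with B2m 79 (87.3% higher). With Tbp 207 passed and 15.5% were higher, so that Tbp was the only single reference under which most calls were lower. With Tfrc 12 passed, 8 higher and 4 lower. The mean of all 8 genes gave 637 probes, 82.4% of them higher, and median scaling gave 135, 90.4% of them higher.

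**Figure D5:**
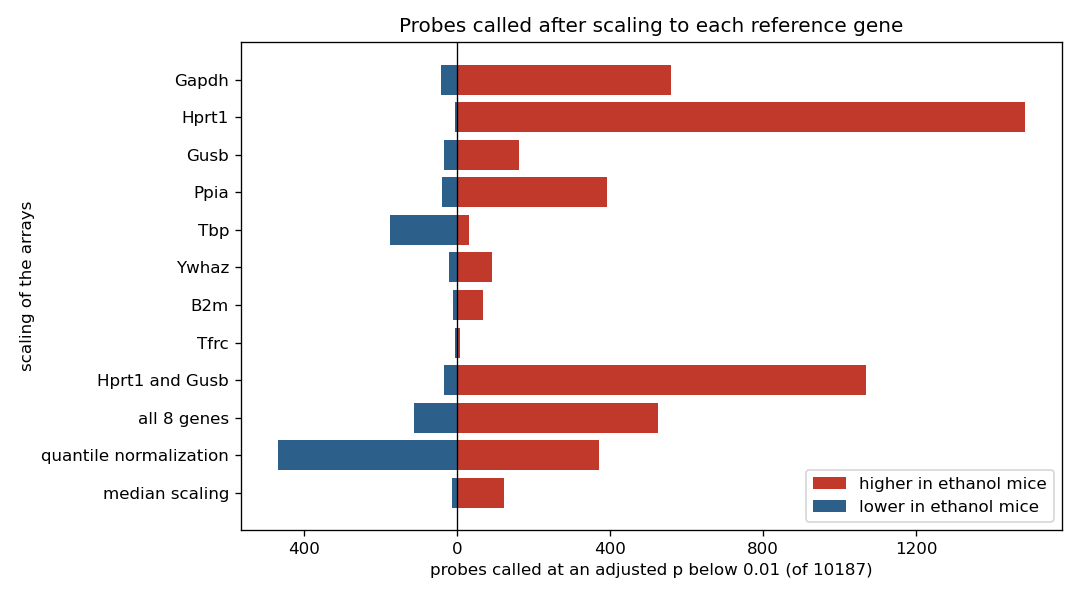
Number of tested probes called at an adjusted p below 0.01 by limma (horizontal axis) after scaling the arrays to each reference gene, to sets of them, or by quantile normalization or median scaling (vertical axis). Red bars to the right are probes higher and blue bars to the left probes lower in ethanol-treated mice. The bars for Hprt1 (1483 higher, 6 lower) and Tbp (32 higher, 175 lower) point in opposite directions. Genes were taken from their brightest probe, and chip was not in the fit.

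The genes named in the Methods as qPCR targets, Syt11, Atp2b1 and Fermt2, were higher in ethanol-treated mice with every reference when all mice were compared without regard to chip. Syt11, a synaptotagmin of vesicle trafficking, was higher in ethanol-treated mice by 0.69 with Tbp and by 0.86 with Hprt1 as the reference, the lowest and highest of the 8 single genes. Atp2b1, a plasma membrane calcium pump, was higher by 0.47 with Tbp and 0.65 with Hprt1. Both passed an FDR of 1% with each of the 8 references, with adjusted p-values up to 0.00115 for Syt11 and 0.00586 for Atp2b1. Fermt2, an adaptor of integrin adhesion, was higher by 0.41 (adjusted p = 2.67e-05) with Hprt1, by 0.23 (adjusted p = 0.01002) with Tbp and by 0.24 (adjusted p = 0.648) with Tfrc, and it did not pass an FDR of 1% with either of the last 2. With Hprt1 and Gusb together the differences were 0.80, 0.59 and 0.35, and with quantile normalization 0.71, 0.49 and 0.25. On chip 3 alone, quantile-normalized, they were 0.33 (adjusted p = 0.127), 0.22 (adjusted p = 0.0697) and 0.23 (adjusted p = 0.0307), and 0 of the 3 genes passed an FDR of 1% there or with chip as a fixed block.

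Other genes of the pathways to which the reference genes belong were described by fixed lists. Their counts are to be read against the 9.78% of all tested genes called at an FDR of 1%. Of 13 tested glycolytic genes, 1 was called higher and 0 lower, and the median difference of the list was 0.064. The gene was Pfkm, a subunit of phosphofructokinase, through its probe at base 405 (0.64, SE 0.13, adjusted p = 0.000871), whereas its probes at bases 2509 and 2602 gave -0.059 and 0.080 and were not called. Of the 6 tested cyclophilin genes other than Ppia, 1 was called lower, and of the 5 tested 14-3-3 genes other than Ywhaz, 1 was called higher. The latter was Ywhab (0.23, SE 0.056, adjusted p = 0.00458 at base 2216), with 0.10 and no call at base 2658. With chip as a fixed block none of these lists held a called gene, and on chip 3 alone Ywhab at base 2216 turned to -0.049, the cyclophilin gene (Ppil3) was at -0.0012 and Pfkm at base 405 at 0.55 (adjusted p = 0.00204). No gene was called among 8 tested genes of purine salvage, 12 lysosomal hydrolases, 8 subunits of TFIID and TFIIA or their relatives, 6 genes of MHC class I presentation and 6 genes of iron handling. The medians of these lists were -0.017, -0.024, -0.055, 0.029 and -9e-05, with -0.0034 for all tested probes.

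The genes whose values were most like those of each reference gene were found by the correlation over the 32 arrays after centring within group and chip. For Gapdh they were Cox6a1 (r = 0.79), a subunit of cytochrome c oxidase, and Clns1a (r = 0.79). For Gusb they were 2310046K01Rik (r = 0.78) and Nope (r = 0.72), for Ppia Ilvbl (r = 0.74) and Fam116b (r = 0.67), and for Ywhaz Mmd (r = 0.71) and Impact (r = 0.69). For Tbp they were 5830434P21Rik (r = 0.64) and Setd8 (r = 0.62), for B2m Zfp688 (r = 0.64) and Rlbp1 (r = 0.63), and for Tfrc Lgi3 (r = 0.69) and Ostm1 (r = 0.64). For Hprt1, 1 of the 2 has a symbol that the table holds only as a number (r = 0.73) and the other is 2310045A20Rik (r = 0.73). These are the highest correlations over all tested genes, on shared arrays, and are given as a description. Different probes of 1 gene, which were not picked for their correlation, gave r = 0.26 to 0.40 for the 3 Hprt1 probes and 0.60 for the Tfrc pair.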

How the data were processed

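Total RNA of FCtx was labelled and hybridized to 1 array per mouse, with 20 ethanol-treated mice and 12 controls. The intensity of each probe, as deposited by the authors, is the mean bead signal on a linear scale without normalization between arrays. Beside it the deposited table gives, for every probe and array, a p-value of detection against the background, and the standard error and number of its beads. The software behind that table is not given in the sources used here. Per the labels, lumi and limma were used by the submitters.

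Here, intensities were transformed with a variance-stabilizing transform computed from the bead errors and quantile-normalized, after the Methods. Probes detected (p below 0.01) on 24 or more of the 32 arrays were tested with limma 3.58.1 in R 4.3.3 (data.table, version 1.17.8), without covariates, with Benjamini-Hochberg adjustment over all 10187. A gene was called when any of its tested probes was. Python 3.11.15 with scipy 1.17.1, numpy 2.4.6 and pandas 2.3.3 ran the permutation tests, and matplotlib 3.10.9 drew the figures. Centred values are those minus the mean of the group on its chip. The brightest probe of a gene is its tested probe with the highest mean. For scaling to reference genes, their mean on the array was subtracted from variance-stabilized values. The number of arrays limits the precision. The labels give a separate mouse for every array, and 0 value columns were left without a sample.

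The members, the lists and the tests were chosen with earlier results of these data known. The genes named are all members, the qPCR targets, of each list at most 2 called genes with the largest rise and 2 with the largest fall, and the 2 genes most like each member. Named outside this rule, after their values were seen, were Trf, Atp5b and Eef1a1 and the undetected markers Snap25, Gad2, Nefl and Gfap. Of the cyclophilin list, the called gene was Ppil3, whose value was -0.22. Cell type lists covered neurons, astrocytes, oligodendrocytes, microglia, endothelium and erythroid cells. With all mice, genes called at an FDR of 1% were Slc17a7 (-0.26) among neurons, Aqp4 (0.54) among astrocytes, Mbp (0.60 at 1 of 3 probes) among oligodendrocytes and Slc2a1 (-0.25) in endothelium, with 0 among microglia and erythroid cells.

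The transform was checked on simulated bead signals without changed probes. Both limma comparisons were tested on simulated normalized values in which 200 probes were changed by 0.3 on the log2 scale. These values had independent noise and no chip effect. With all arrays 192 were recovered at an FDR of 1%, with 3 false calls, and on chip 3 alone 69 were recovered at an FDR of 10% (34.5%), with 4 false calls. Alternatives were median scaling over all or over the tested probes, no scaling, log2 of the signal, normexp background with an offset of 16, no detection filter, a filter on detection in every mouse, fixed or random blocks for chip, odd or even position, array weights, the brightest probe only, and leaving out arrays. Genome coordinates in the table name no build and were not used.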

Additional observations from a re-analysis of the deposited data

Results flagged for a closer look

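The ethanol difference of 3 probes was not the same on chip 3 as on the other chips, by a limma interaction term with an adjusted p below 0.01. The interaction was -0.68 for the Tfrc probe at base 4269, -0.51 for the Tfrc probe at base 4355 and -0.46 for the Hprt1 probe at base 699. On the log2 scale of median-scaled values the same terms were -0.82 (adjusted p = 0.0108), -0.66 (adjusted p = 0.0216) and -0.59 (adjusted p = 0.0340). On chip 3 the groups also differed in position, and the remaining chips each held a single group, so that chip and treatment cannot be told apart there.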

How the results depend on the processing

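No paired analysis was possible because the mouse numbers are shared by no 2 groups. The count of 0 reference genes at an FDR of 1% became 1 with no scaling between arrays (Tbp) and 1 with chip as a fixed block (Tfrc). The count of 0 at an FDR of 10% and 1.1-fold became 1 with median scaling over the tested probes (Hprt1), 8 with no scaling and 2 with the chip block. The 2 genes called on chip 3 were 2 with median scaling, log2 of the signal and normexp background, and leaving out each of its arrays in turn gave 2 to 2. Using only the brightest probe was not tried on chip 3. In the main fit Hprt1 was called there only through base 699, and its brightest probe, at base 955, gave -0.0013. The 2 genes with a chip 3 interaction became 0 with median scaling and 0 with position as a covariate. The 1102 probes called with Hprt1 and Gusb as the reference became 0 with the chip block, 601 with Gapdh, 198 with Gusb, 432 with Ppia, 207 with Tbp, 113 with Ywhaz, 79 with B2m, 12 with Tfrc and 637 with all 8 genes. Without control mouse C66 the count was 1157. The difference of Hprt1 minus Gusb turned to 0.011 with the Hprt1 probe at base 699.

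Of the 12 probe differences, 9 turned positive with no scaling: B2m at base 321 (0.17), Gapdh (0.15), Gusb (0.19), the Hprt1 probes at bases 189 (0.095), 955 (0.067) and 699 (0.20), Ppia (0.16), Tfrc at base 4355 (0.14) and Ywhaz (0.19). With median scaling B2m at base 321 (0.016), Gusb (0.034), Hprt1 at base 699 (0.045), Ppia (0.0091) and Ywhaz (0.043) turned positive. With chip as a fixed block B2m at base 321 (0.078), Tfrc at base 4269 (-0.47) and Ywhaz (0.027) changed sign. With position added to that block B2m at bases 321 (0.038) and 322 (-0.012), Hprt1 at bases 189 (0.062) and 955 (0.16) and Tfrc at base 4269 (-0.34) did. As a random block the chip turned Tfrc at base 4269 (-0.099) and Ywhaz (0.0024), position alone turned Ppia (0.013), and leaving out C66 turned B2m at base 322 (-0.0012). The cause of these changes was not tested. The 95% intervals of the all-mouse comparison take no account of chip: for Tfrc at base 4269 the interval was -0.16 to 0.17 without and -0.69 to -0.26 with the chip block.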

Other observations

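Among 22 further genes in common use as references, 17 were on the array and 12 were tested. Actb, which encodes cytoplasmic beta actin, was the 1 gene called at an FDR of 1%, higher in ethanol-treated mice, a share no larger than the 9.78% of all tested genes called by this rule. With chip as a fixed block 0 of the 12 genes were called. Its 5 tested probes gave differences from 0.13 to 0.66. At base 14 the means were 10.84 ± 0.23 (SD, n = 20) with ethanol and 10.19 ± 0.46 (SD, n = 12) without (0.66, SE 0.11, adjusted p = 0.00012 by limma). The probe at base 1173 gave 0.32 (SE 0.077, adjusted p = 0.00378). On chip 3 the Actb probes gave values of both signs, with 0.23 at base 14, 0.26 at base 1173 and -0.33 at base 1610. The SDs of the 5 probes were at percentiles 94.2 to 99.8 of all tested probes. Atp5b, a subunit of mitochondrial ATP synthase, differed by 0.037 (SE 0.031) with an SD of 0.067 (percentile 0.196), and Eef1a1, an elongation factor of translation, by 0.080 and 0.070 at its 2 probes, with percentiles 1.99 and 0.334.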
